A study of Rattus norvegicus with 27 samples.

Results

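The first 2 days of life of the rat parotid acinar cell were read from 6 arrays, 3 at the day of birth (P0) and 3 at postnatal day 2 (P2), out of 27 arrays that cover 9 ages of the gland. All 31042 probe sets other than the array controls were compared, and the 3 arrays of postnatal day 5 (P5) were set beside them only to show whether a difference was still present at that age. The animals were Sprague Dawley rats (spelled Sprauge Dawley in the labels), with no treatment named in the labels, and the groups differed in age alone as far as those state. The 3 arrays of an age came from 3 litters according to the methods. At P0, P2 and P5 the acinar cells were cut by laser from sections of halved heads, which hold other tissues beside the gland. The methods state that each cap was inspected and that caps with other cells were not used. Captures of 1 sample were combined, and the sex of the pups is not in the labels. The labels do not say which amount of input RNA each array had, and they name another RNA isolation kit than the methods.

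The parotid is the serous salivary gland. Its acinar cells fill secretory granules with amylase, parotid secretory protein and proline-rich proteins, and they move chloride, bicarbonate and water into the saliva when nerves call for it. In the rat the gland is still a set of proliferating terminal buds around birth, granules accumulate in the suckling period, and adult secretory capacity is reached only around weaning. The step from P0 to P2 is the one in which the pup first feeds by mouth.

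The tissue label was checked against 14 marker genes of the parotid acinar cell. Their mean level on the log2 scale was 6.30 to 6.85 in the 3 P0 arrays, 8.55 to 9.62 in the P2 arrays and 8.36 to 8.90 in the P5 arrays. Parotid secretory protein and amylase were already among the bright genes at birth, with levels of 9.79 to 10.81 for Bpifa2 and 9.83 to 10.78 for Amy1 against array medians of 5.99 to 6.05. Markers of the other head tissues were present too and differed from array to array. The mean of 33 skeletal muscle markers was 8.72, 5.41 and 7.57 in P0 replicates 1 to 3, against 6.83, 5.43 and 5.25 at P2. The mean of 16 epidermis markers was 8.48 in P0 replicate 1 and 5.00 and 5.35 in the other P0 arrays, and 6.29, 7.36 and 5.20 at P2. P2 replicate 3 stood somewhat apart from the rest, with a mean correlation of 0.902 with the other 8 arrays of the 3 ages, where those 8 had 0.924 to 0.937.

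Sex-linked genes also differed between the ages. Xist, the RNA that silences one X chromosome in females, had log2 levels of 4.28, 2.65 and 3.29 at P0, 11, 10.45 and 5.25 at P2 and 10.42 to 10.90 at P5. Eif2s3y, a gene of the Y chromosome, had 9.32, 8.66 and 1.63 at P0, 2.38, 1.63 and 7.84 at P2 and 2.16 to 2.87 at P5. Sex and age could therefore not be fully separated here, and with the difference of these genes as a covariate 33 probe sets were called in place of 57, 30 of them shared.

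The promoters of the 5 saliva protein genes that passed the test are shown first, because these genes encode secreted products of the gland itself. Each run is the 250 bases before the annotated start in the RefSeq annotation of GRCr8, printed 5′ to 3′ on the gene's strand, with capitals marking the letters TATAAA of the TATA box, searched on both strands. Positions are given before each sequence.
Pip, chr4:71754015-71754264 (+): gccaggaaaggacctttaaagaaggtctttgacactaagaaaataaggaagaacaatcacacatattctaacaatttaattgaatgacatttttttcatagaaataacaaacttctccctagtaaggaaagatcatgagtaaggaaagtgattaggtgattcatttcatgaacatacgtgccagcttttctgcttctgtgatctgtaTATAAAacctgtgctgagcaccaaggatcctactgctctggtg
Prpmp5, chr4:167271667-167271916 (-): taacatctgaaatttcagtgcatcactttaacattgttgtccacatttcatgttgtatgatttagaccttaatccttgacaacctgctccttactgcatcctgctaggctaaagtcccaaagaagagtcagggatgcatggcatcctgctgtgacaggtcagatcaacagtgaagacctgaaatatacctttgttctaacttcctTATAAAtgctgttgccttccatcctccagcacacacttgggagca
Smr3a, chr14:20338821-20339070 (-): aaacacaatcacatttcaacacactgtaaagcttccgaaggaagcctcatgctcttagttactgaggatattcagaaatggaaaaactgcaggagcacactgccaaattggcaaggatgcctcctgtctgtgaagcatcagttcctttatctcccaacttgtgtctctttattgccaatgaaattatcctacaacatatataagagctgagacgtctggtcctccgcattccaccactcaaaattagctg
Lpo, chr10:73123457-73123706 (-): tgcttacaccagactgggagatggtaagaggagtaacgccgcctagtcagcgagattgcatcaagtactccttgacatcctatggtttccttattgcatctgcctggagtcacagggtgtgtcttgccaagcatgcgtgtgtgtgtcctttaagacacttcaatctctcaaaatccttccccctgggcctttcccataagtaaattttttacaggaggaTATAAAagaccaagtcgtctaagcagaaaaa
Bpifa2, chr3:162953288-162953537 (+): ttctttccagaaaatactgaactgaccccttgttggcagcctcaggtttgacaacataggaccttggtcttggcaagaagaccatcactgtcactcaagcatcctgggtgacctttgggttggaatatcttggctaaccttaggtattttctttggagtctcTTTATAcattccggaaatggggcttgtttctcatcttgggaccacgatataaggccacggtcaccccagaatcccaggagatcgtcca

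The letters were found in 4 of these 5 windows. They lay 43 bases before the start in Pip, 45 in Prpmp5, 31 in Lpo and, on the opposite strand, 88 in Bpifa2. The Smr3a window did not hold these 6 letters. Only exact matches were counted, at any position and on either strand. Near matches, such as that closer to the start in Bpifa2, were not marked. Whether a match acts as a TATA box was not tested. Among the 29 named genes that were higher at P2, 21 had a promoter entry and 10 of those 21 held TATAAA, where 12.9% of 33469 rat promoter windows of this length did. Among the 16 named genes that were lower, 10 had an entry and 3 of those 10 held it. The gene counts took the first window listed for each gene, and the share took all windows.

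Between P0 and P2, 57 of 31042 probe sets (0.184%) passed an adjusted p of 0.05 in limma's moderated test. Of these, 35 were higher at P2 (0.113%) and 22 were lower (0.0709%). The 57 held 45 named genes, 29 higher and 16 lower, 1 probe set with several symbols and 11 with none. In all 57 the P2 arrays did not overlap the P0 arrays. At an unadjusted p under 0.05 there were 2452 probe sets (7.9%), 1205 higher and 1247 lower, and the median difference over all probe sets was 0.03. After quantile normalisation the split was 30 higher and 9 lower. With the 6 arrays of P0 and P2 alone, limma called 0 probe sets, against 2569 at an unadjusted p under 0.05, and the smallest adjusted p was 0.0605 for Pip. The count in the fit of all ages also moved with single arrays. It was 30, 28 and 35 without P0 replicates 1, 2 and 3, and 28, 97 and 46 without P2 replicates 1, 2 and 3. These fits shared 22, 22, 32, 20, 43 and 30 of the 57 in the same order, 15 of the 57 passed in each of the 6, and no called probe set changed sign in any of them.

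The saliva proteins were among the largest rises. Of 28 listed genes 23 were measured, 5 were higher at P2 past the threshold and none lower, where 0.183% of 14217 genes, with 1 probe set each, were called higher and 0.0985% lower. The median difference of the list was 1.19 log2 units, against 0.01 over all genes, and 0.61 without P2 replicate 1. Pip, prolactin-induced protein, a small secreted glycoprotein of saliva and tears, had log2 levels of 5.41, 4.69 and 4.94 at P0 and 12.88, 11.48 and 10.44 at P2. The ages did not overlap, and the difference was 6.59 ± 0.53 (SE), or 96.3-fold, with limma's adjusted p = 4.14e-07. Smr3a, a secreted protein first described in the submaxillary gland, went from 6.19, 4.14 and 4.06 to 10.77, 11.48 and 10.90. The 3 P2 arrays lay close together, and the difference of 6.25 ± 0.43 (76.2-fold, adjusted p = 4.78e-08) had the smallest p of all probe sets. Prpmp5, a proline-rich protein of the parotid granule, had 6.63, 3.46 and 3.04 at P0 and 11.01, 11.07 and 10.75 at P2, a difference of 6.57 ± 0.87 (94.9-fold, adjusted p = 0.000673). P0 replicate 1 was the highest P0 array for all of Pip, Smr3a and Prpmp5.

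Lpo, lactoperoxidase, an antibacterial enzyme of saliva and milk, had 3.51, 6.54 and 3.97 at P0 and 9.04, 8.37 and 9.14 at P2. All P2 arrays were above all P0 arrays, with a difference of 4.18 ± 0.64 (18.1-fold, adjusted p = 0.00404). Bpifa2, parotid secretory protein, rose from 10.64, 9.79 and 10.81 to 13.16, 12.96 and 12.91. This was the smallest rise of the 5, at 2.59 ± 0.34 (6.03-fold, adjusted p = 0.000509), from the highest starting level. These 5 genes passed in each fit that left out 1 array, with adjusted p up to 0.0366. Amy1, salivary amylase, moved by a like amount without passing. Its levels were 10.78, 9.83 and 10.46 at P0 and 12.70, 12.84 and 12.80 at P2, a difference of 2.43 ± 0.64 with adjusted p = 0.172, and it was called in 3 of 19 alternative fits. Pip, Prpmp5, Smr3a, Amy1 and their relatives belong to gene families with close copies, and whether their probe sets separate the copies was not tested.

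**Figure D1:**
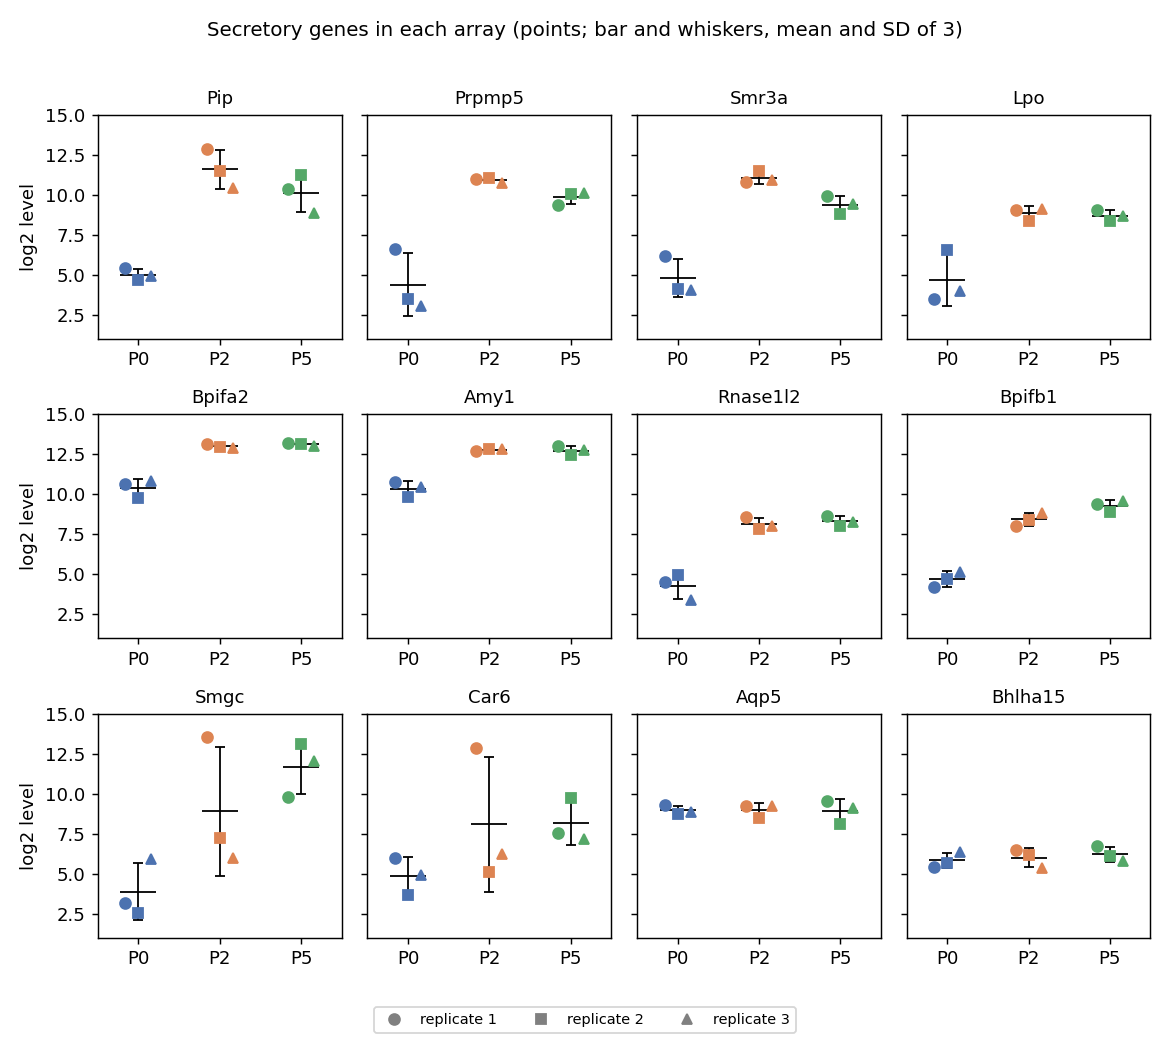
Log2 levels of 12 secretory and acinar genes at P0, P2 and P5. Points are single arrays, shaped by replicate, and bars with whiskers are the mean and SD of 3; Pip, Prpmp5, Smr3a, Lpo, Bpifa2, Amy1, Rnase1l2 and Bpifb1 have all P2 arrays above all P0 arrays, Smgc and Car6 are highest in P2 replicate 1 among the P2 arrays, and Aqp5 and Bhlha15 overlap between the ages.

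Other saliva genes were high in 1 P2 array only. Car6, the secreted carbonic anhydrase of saliva, had 12.88, 5.10 and 6.25 at P2 and 3.68 to 6.0 at P0. Oprpn, an opiorphin prepropeptide, had 12.58, 2.76 and 2.86 at P2 and 2.33 to 2.38 at P0. Smr3b, a relative of Smr3a, had 10.93, 3.49 and 6.03 at P2 and 2.68 to 4.89 at P0. P2 replicate 1 was thus the array with the high values in each of the 3 genes, and none passed the test (adjusted p from 0.439 to 0.659). Smgc, a mucin-like protein of the neonatal submandibular and sublingual glands, had 13.52, 7.22 and 5.99 at P2 and 2.52 to 5.90 at P0, with adjusted p = 0.211. The mean of 11 mucous and submandibular markers was 7.85, 5.35 and 5.22 in the P2 arrays and 4.26 to 4.85 at P0, and the part of these glands in the values was not tested. Lower levels at P2 were seen for the BPI-fold protein Bpifa1 (9.54 to 9.86, then 8.07 to 8.78) and the secretoglobin Scgb1c1 (7.65 to 9.28, then 5.27 to 6.80), both with P2 arrays below all P0 arrays and neither past the threshold (adjusted p of 0.546 and 0.284).

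Several further genes rose, among them some of secreted proteins. Rnase1l2, a secreted ribonuclease of the pancreatic type, had 4.50, 4.94 and 3.38 at P0 and 8.57, 7.83 and 8.04 at P2, a difference of 3.88 ± 0.35 (14.7-fold, adjusted p = 2.45e-06). Bpifb1, a BPI-fold protein of the airway and mouth lining, had 4.19, 4.70 and 5.17 at P0 and 8.05, 8.38 and 8.85 at P2. It was higher by 3.74 ± 0.32 (13.3-fold, adjusted p = 8.44e-07). Sftpd, surfactant protein D, a collectin that binds microbes, had 5.49 to 6.01 at P0 and 8.02 to 9.00 at P2, a difference of 2.84 ± 0.34 (adjusted p = 0.00019). Sult1c3, a cytosolic sulfotransferase, went from 3.80, 2.54 and 3.22 to 9.55, 10.09 and 8.18, a difference of 6.09 ± 0.61 (67.9-fold, adjusted p = 7.68e-06). These 4 passed in each fit that left out 1 array. In the endoplasmic reticulum, Rrbp1, which binds ribosomes to the membrane, differed by 2.02 ± 0.34 (adjusted p = 0.0105) and Reep5, which shapes its tubules, by 0.92 ± 0.17 (adjusted p = 0.0187). Each has a second, brighter or dimmer, probe set that did not pass, at 0.47 for Rrbp1 and 0.46 for Reep5. Neither call held in every fit that left out 1 array, with adjusted p up to 0.0767 and 0.109. Of 39 genes of endoplasmic reticulum folding and XBP1 targets none was called, and Xbp1 itself had 9.27, 9.63 and 9.35 at P0 and 10.38, 10.05 and 9.48 at P2.

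The machinery of fluid secretion showed fewer calls, with a list mean that lay highest at P2. Of 28 genes measured, 1 was called higher and none lower, where 0.183% and 0.0985% of all genes were. In 7 all P2 arrays lay above all P0 arrays (25%, against 7.41% of all genes). The mean of the list was 6.45 to 6.58 at P0, 6.90 to 7.07 at P2 and 6.65 to 6.72 at P5. Car2, the cytosolic carbonic anhydrase that supplies bicarbonate, had 4.38, 4.45 and 2.95 at P0, 7.54, 6.70 and 7.88 at P2 and 6.15, 5.50 and 6.43 at P5. It was higher at P2 by 3.45 ± 0.59 (10.9-fold, adjusted p = 0.0108), with adjusted p up to 0.0774 when 1 array was left out, and a second probe set of the gene differed by 0.54. Cftr, the chloride channel of the luminal membrane, had 5.15, 4.66 and 4.74 at P0, 7.81, 7.51 and 7.61 at P2 and 5.60, 5.38 and 5.16 at P5. The 3 P2 arrays stood clear of both other ages, but the adjusted p was 0.194. It was 0.0116 in the fit of the 9 arrays alone, the only 1 of 19 alternatives to call the gene. When 1 array was left out it was 0.227 to 0.485. Slc26a6, an anion exchanger, had 4.57 to 5.18, then 5.82 to 7.92, then 4.17 to 6.10, and Slc12a2, the basolateral sodium, potassium and chloride cotransporter, had 9.30 to 9.89, then 10.45 to 10.75, then 10.01 to 10.29. Neither passed the test (adjusted p of 0.132 and 0.16). Aqp5, the acinar water channel, overlapped between the ages, with 9.29, 8.74 and 8.84 at P0 and 9.21, 8.48 and 9.26 at P2.

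Further genes passed, among them ones linked to membrane transport. Slc44a4, a choline transporter-like protein of secretory epithelia, differed by 2.19 ± 0.41 (adjusted p = 0.0224) and had 4.68 to 5.12 at P5 against 5.29 to 7.12 at P2. Tesc, a calcium-binding partner of the sodium and proton exchanger, had 6.47, 6.11 and 6.73 at P0 and 9.87, 9.10 and 7.97 at P2, a difference of 2.54 ± 0.39 (adjusted p = 0.00452). Tc2n, a protein with C2 domains, differed by 1.75 ± 0.32 (adjusted p = 0.0224). Of these genes only Tesc was called in each fit that left out 1 array, and the adjusted p reached 0.129 for Slc44a4 and 0.11 for Tc2n.

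1 duct factor was called higher at P2, beside other duct and ionocyte genes that were not called. Ascl3, a basic helix-loop-helix factor of salivary duct cells and their progenitors, had 4.75, 4.79 and 5.46 at P0, 8.94, 9.57 and 7.43 at P2 and 7.47, 8.11 and 8.09 at P5. The difference from P0 to P2 was 3.65 ± 0.58 (12.5-fold, adjusted p = 0.00614). Foxi1, the ionocyte factor, had 3.72 to 3.93 and then 5.29 to 6.71, and Hsd11b2, which guards aldosterone-responsive ducts against glucocorticoid, had 6.40 to 7.33 and then 8.58 to 10.45. Both had P2 arrays above all P0 arrays without passing (adjusted p of 0.453 and 0.132). Of 16 duct markers, a list without Hsd11b2, 1 was called, against 0.183% of all genes. P2 arrays lay above all P0 arrays in 7 and below in 2, against 7.41% and 8.89% of all genes. Those 2 lay below at P5 too. The list mean was 7.04 to 7.31 at P0, 7.66 to 8.12 at P2 and 7.21 to 7.27 at P5, so the P2 level was not kept. In these captures more cells of a type and more RNA per cell cannot be told apart. Pou2af3, a coactivator of the tuft cell factor POU2F3, had 3.68, 3.12 and 4.40 at P0 and 7.01, 7.57 and 8.17 at P2. It was 3.85 ± 0.56 higher (14.4-fold, adjusted p = 0.00216) and had returned to 4.08 to 5.79 at P5, overlapping P0.

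Progenitor genes moved in both directions. Of 37 progenitor and bud genes, Ascl3 was called higher and Sox11 lower, where 0.183% and 0.0985% of all genes were. P2 arrays lay above all P0 arrays in 8 and below in 8, against 7.41% and 8.89% of all genes. The list median was -0.13. Sox11, a factor of embryonic progenitors, had 9.29, 8.60 and 8.68 at P0, 6.36, 6.43 and 5.92 at P2 and 7.70, 7.10 and 6.69 at P5. It fell by 2.62 ± 0.26 on the log2 scale (6.16-fold, adjusted p = 7.68e-06) and passed in each fit that left out 1 array. Igf2bp2, an RNA-binding protein of fetal growth, fell by 1.72 ± 0.33 on the log2 scale (adjusted p = 0.0285) on 1 of its probe sets. The other differed by -1.0 with adjusted p = 0.662, and without P0 replicate 1, P0 replicate 3 or P2 replicate 3 the first was no longer called (adjusted p up to 0.16). Its relative Igf2bp1 had 5.49 to 7.13 and then 3.93 to 5.05, and Etv5, a target of fibroblast growth factor signalling in buds, had 8.47 to 8.97 and then 7.26, 6.92 and 4.50 (adjusted p of 0.171 and 0.147). The network list held genes named in the paper, some of them, such as Tcf3, outside its proposed network. Of 16 measured, Bpifa2 was called higher and Sox11 lower. P2 arrays lay above all P0 arrays in 4 and below in 4, against 7.41% and 8.89% of all genes. Bhlha15, the MIST1 factor of serous cells, had 5.44, 5.66 and 6.37 at P0 and 6.5, 6.15 and 5.34 at P2, and the ages overlapped.

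Many cell division genes had lower levels at P2, with no list member past the threshold. Of 36 mitosis genes, 18 had all P2 arrays below all P0 arrays and none above (50%, against 8.89% of all genes), with a median difference of -0.65. Of 38 genes of DNA replication, 13 were below and none above, with a median of -0.51. That median was -0.25 without P0 replicate 1 and P2 replicate 3 together, and -0.00489 with the adipocyte and hair follicle covariates, both fits chosen after seeing the data. The median of the mitosis list was -0.57 and -0.90 in the same fits. The mean of the mitosis list was 8.95, 8.73 and 8.72 at P0 and 8.04, 8.33 and 8.04 at P2, and it was 8.65, 7.81 and 8.02 at P5, where replicate 1 lay near the P0 arrays. Cenpf, a kinetochore protein, had 10.97 to 11.33 at P0 and 10.08 to 10.78 at P2, and Mcm7, a subunit of the replicative helicase, had 12.03 to 12.40 and 11.46 to 12.03. Cenpe, the kinetochore motor, had 7.38 to 8.16 and 5.44 to 7.12. The adjusted p of these 3 genes lay between 0.343 and 0.454. Cdca2, which targets a phosphatase to chromosomes at the end of mitosis and was not on the list, was called lower by 1 probe set, at 10.04, 9.45 and 8.77 against 6.13, 7.16 and 4.42 (difference -3.52 ± 0.72, adjusted p = 0.0467). Its other probe set differed by 0.33 in the opposite direction, and the called one had 7.31 to 8.86 at P5, overlapping P0. Hist2h2be, a core histone, fell by 2.00 ± 0.41 on the log2 scale (adjusted p = 0.0497). Both were lost in 5 of the 6 fits that left out 1 array, with adjusted p up to 0.226 and 0.193.

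Immediate early genes, which cells switch on within minutes of a stimulus, had many members with lower levels at P2. Of 27 measured, 1 was called lower, 12 had P2 arrays below and 1 above all P0 arrays (44.4% and 3.7%, against 8.89% and 7.41% of all genes, of which 0.0985% were called lower). The median was -0.62. Fosb, a partner in the AP-1 factor, had 6.30, 6.99 and 6.97 at P0, 4.27, 4.29 and 4.55 at P2 and 4.06, 6.06 and 5.48 at P5. It fell by 2.38 ± 0.45 on the log2 scale (5.22-fold, adjusted p = 0.0247), and 5 of the 6 fits that left out 1 array, all but that without P0 replicate 1, no longer called it (adjusted p up to 0.121). At E18 and E20 its mean was 4.36 and 4.78, so P0 was the high age among these. Fos had 8.78, 6.60 and 7.21 at P0 and 5.46, 3.96 and 4.19 at P2. Egr1 had 11.61, 11.63 and 11.95 and then 10.50, 10.23 and 10.36. For both, all P2 arrays were below all P0 arrays, with adjusted p of 0.205 and 0.175. Egr2 had 9.15, 9.96 and 9.48 at P0, 7.29, 7.83 and 7.13 at P2 and 9.67, 11.53 and 10.03 at P5, so that only P2 was low. Atf3, a stress factor, and Ccn2, a matrix protein induced by stretch, differed by -1.81 and -1.78 (adjusted p of 0.321 and 0.238).

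The serum response element is the textbook switch of the family, and promoters of 2 uncalled members that hold it are shown. The runs are the same 250-base windows of the RefSeq annotation of GRCr8, 5′ to 3′, with capitals marking each match to that element, searched on both strands.
Egr2, chr20:21054442-21054691 (-): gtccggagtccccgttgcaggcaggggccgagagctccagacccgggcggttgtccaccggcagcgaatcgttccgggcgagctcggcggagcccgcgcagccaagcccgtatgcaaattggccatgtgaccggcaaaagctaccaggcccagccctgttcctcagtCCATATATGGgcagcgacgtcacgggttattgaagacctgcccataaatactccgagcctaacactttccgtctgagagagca
Zfp36, chr1:92799109-92799358 (-): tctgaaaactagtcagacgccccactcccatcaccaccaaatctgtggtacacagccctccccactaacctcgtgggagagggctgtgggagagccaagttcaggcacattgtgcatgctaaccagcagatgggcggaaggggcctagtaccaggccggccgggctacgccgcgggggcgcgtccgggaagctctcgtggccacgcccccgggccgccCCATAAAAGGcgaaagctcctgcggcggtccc

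Of the 12 immediate early genes with P2 arrays below all P0 arrays, 9 had a promoter entry. Of those 9, 4 (Egr1, Egr2, Klf6 and Zfp36) held the element, and Fosb, the only called member, did not. The same 4 were the holders among all 18 measured members with an entry, and 1.5% of all 33469 windows held it. No match of the TATA box overlapped one of this element in the 7 windows shown.

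**Figure D2:**
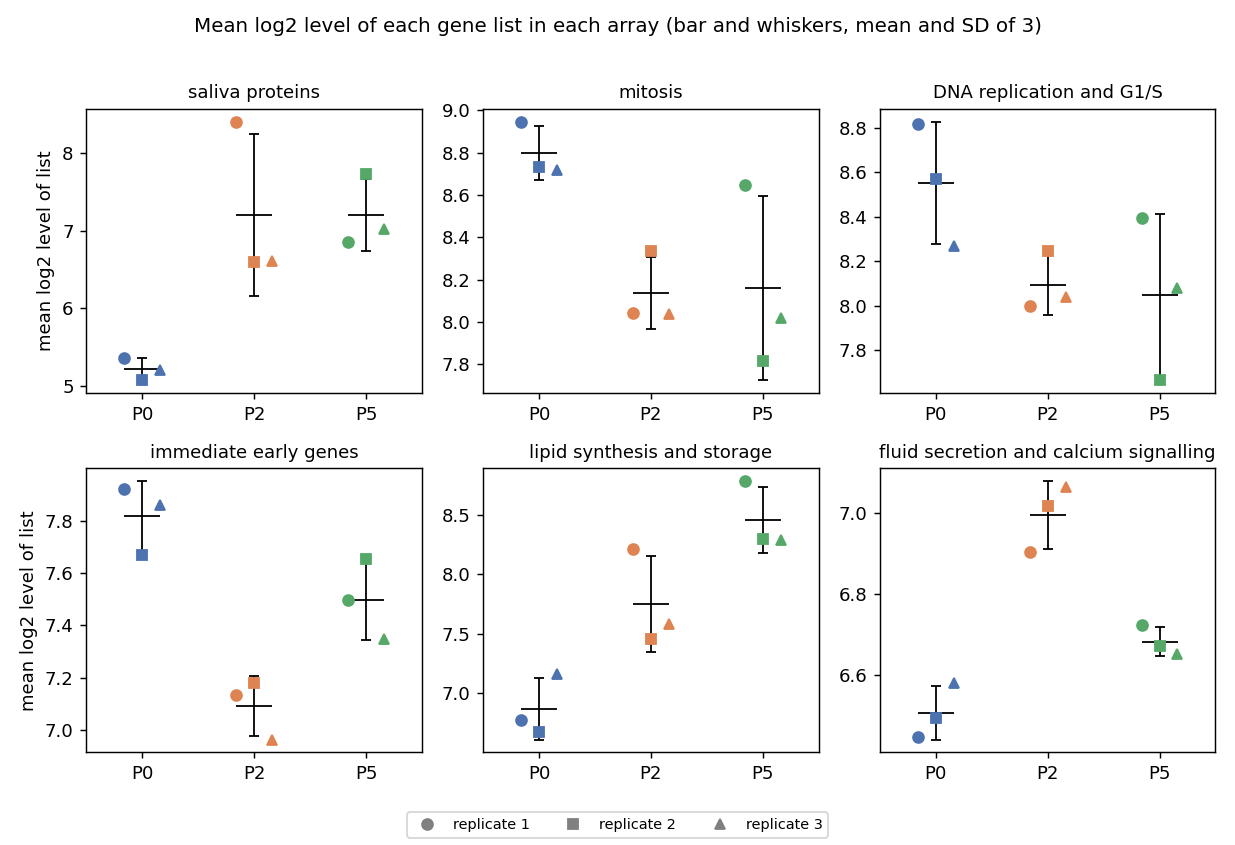
Mean log2 level of 6 gene lists in each array at P0, P2 and P5, with the mean and SD of 3 as bar and whiskers and a separate axis range for each list. Saliva proteins are higher and mitosis, DNA replication and immediate early genes lower in the P2 arrays than in the P0 arrays, lipid genes climb further to P5, and fluid secretion genes peak at P2.

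Some genes of fat cells were higher at P2, as were some adipocyte markers of the arrays, whose part in the other differences was not tested. Of 18 adipocyte markers 1 was called and 6 had P2 arrays above all P0 arrays, where 0.183% of all genes were called higher and 7.41% lay above. The list median was 1.96, and 1.19 without P2 replicate 1. The list mean was 5.55, 5.28 and 6.76 at P0, 8.82, 6.63 and 7.93 at P2 and 8.39 to 8.76 at P5. Rbp4, the retinol carrier that fat and liver secrete, had 4.36, 4.40 and 5.45 at P0 and 9.69, 7.11 and 8.26 at P2, a difference of 3.62 ± 0.66 (12.3-fold, adjusted p = 0.0187). Lgals12, an adipocyte galectin, differed by 2.45 ± 0.46 (adjusted p = 0.0224) and Aoc3, an amine oxidase of fat and smooth muscle, by 3.18 ± 0.65 (adjusted p = 0.0433), with a dimmer probe set of Aoc3 at 0.87. None of the 3 was called in every fit that left out 1 array, with adjusted p up to 0.224. Adipoq, the fat hormone adiponectin, had 10.44, 6.71 and 9.37 at P2, lowest in the array with the lowest adipocyte mean, and 5.00, 5.15 and 7.17 at P0. Pck1, which makes the glycerol backbone of fat in adipocytes, had 3.37, 4.25 and 7.52 and then 11.94, 8.29 and 10.87. Fabp4, the fatty acid carrier of the fat cell, had 7.17, 7.36 and 9.63 and then 11.76, 9.24 and 10.67. These 3 did not pass (adjusted p from 0.141 to 0.194), and without P2 replicate 2 Adipoq did, at 4.13 with adjusted p = 0.0106. Of 36 genes of lipid synthesis and storage, a list that shares members such as Adipoq, Pck1 and Fabp4 with the adipocyte markers, none was called. In 10 the P2 arrays lay above all P0 arrays and in none below, against 7.41% and 8.89% of all genes. Their median was 0.37 at P2 and 1.02 at P5, both against P0, and the first was 0.20 without P2 replicate 1 and 0.56 without P2 replicate 2. With the adipocyte and hair follicle covariates, which hold some of these genes, the P2 median was -0.00809.

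Hair follicle genes gave the single largest rise. Tchh, trichohyalin of the inner root sheath, had 2.93, 2.90 and 3.29 at P0, 9.59, 11.19 and 9.00 at P2 and 10.43, 6.07 and 11.34 at P5. Krt25, a keratin of the same sheath, had 4.08, 4.41 and 4.38, then 11.17, 12.57 and 8.43, then 11.93, 5.73 and 12.90. Both were low in all P0 arrays and uneven at P5, where replicate 2 was the low array. The means of Tchh and Krt25 were 3.41 and 4.28 at E18, 3.25 and 4.23 at E20 and 9.72 and 10.89 at P9. By the methods the gland itself was removed at P9, and the source of this RNA was not tested. The differences from P0 to P2 were 6.89 ± 1.01 (118-fold, adjusted p = 0.00221) and 6.43 ± 1.20 (86.4-fold, adjusted p = 0.0224), and only Tchh was called in each fit that left out 1 array (adjusted p for Krt25 up to 0.0989). Krt71 and Krt33b, further hair keratins, had P2 levels of 9.52 to 11.52 and 7.22 to 10.17 against 7.15 to 7.92 and 5.20 to 5.54 at P0 (adjusted p of 0.165 and 0.0703). Of 11 hair follicle markers measured (29 listed) 2 were called, against 0.183% of all genes, and 7 had P2 arrays above all P0 arrays, against 7.41%. The list mean was 5.11 to 5.25 at P0, 7.94, 9.56 and 7.10 at P2 and 8.68, 6.18 and 8.59 at P5. At P2 the pigment cell genes Pmel and Tyr followed the same arrays, with 7.49, 8.54 and 5.24 and with 5.58, 5.77 and 3.72. Of 6 pigment cell markers none was called and 3 had P2 arrays above all P0 arrays, against 7.41% of all genes. Their mean at P5 was 7.81, 5.36 and 5.00, so P5 replicate 3 was high for the hair list and lowest for this one. With the adipocyte and hair follicle means as covariates, a fit chosen after seeing these levels, 2 probe sets were called, those of Pip and Smr3a. These lists share genes with the calls and follow age, so that fit removes part of any difference with age.

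**Figure D3:**
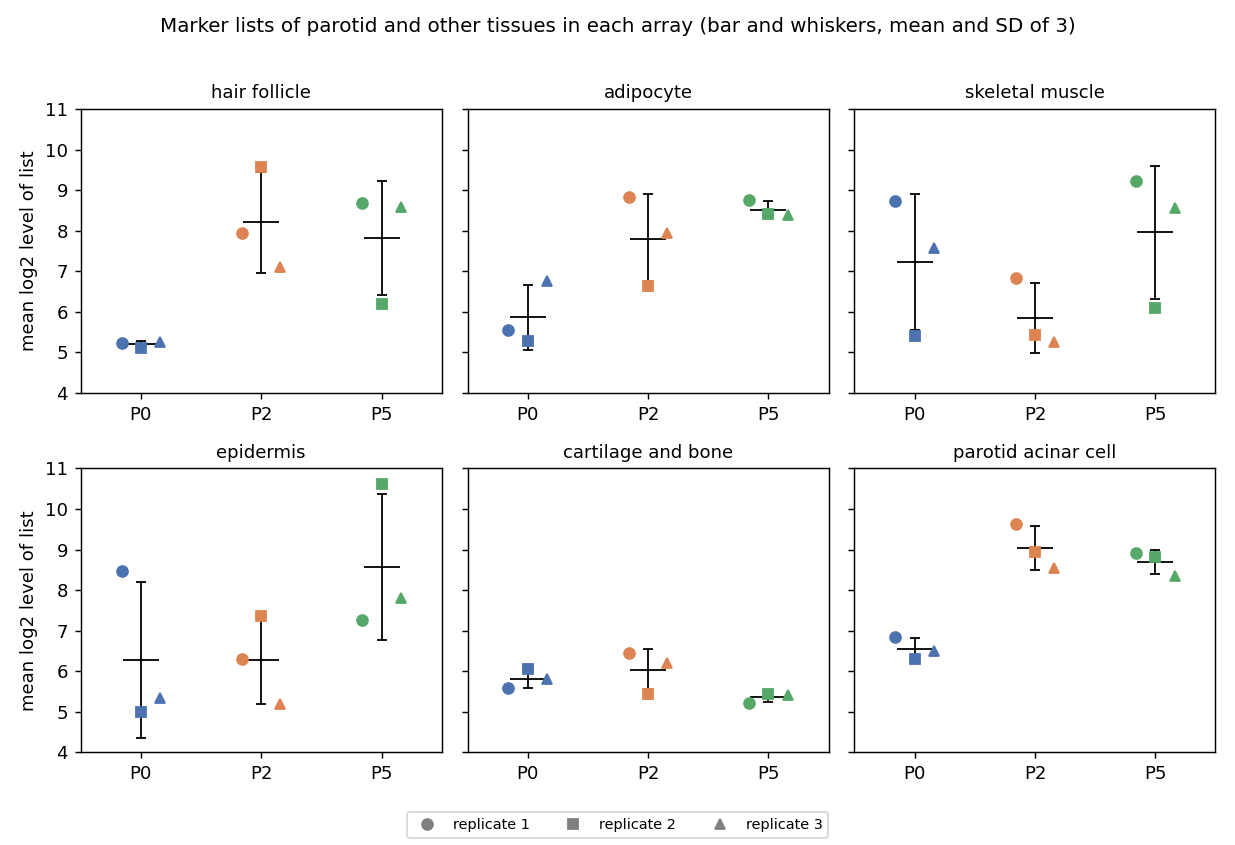
Mean log2 level of 5 marker lists of other tissues and of the parotid acinar list in each array at P0, P2 and P5, on 1 shared axis, with mean and SD of 3. Hair follicle and parotid acinar means are higher in all P2 arrays than in all P0 arrays, adipocyte means overlap between P0 and P2, and muscle and epidermis means differ between arrays of 1 age.

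A single cartilage gene was called lower, and no gene of the extracellular matrix list was called. Col9a1, a collagen of cartilage, had 9.73, 9.27 and 9.74 at P0 and 5.65, 6.68 and 6.73 at P2 (difference -3.23 ± 0.67, adjusted p = 0.0497), and no fit that left out 1 array called it (adjusted p up to 0.184). Its partners Col9a2 (8.82 to 9.26, then 7.16 to 8.63) and Col2a1 (7.82 to 9.53, then 5.24 to 7.39) were also lower in all P2 arrays, without passing. Of the 21 cartilage and bone markers 1 was called lower, against 0.0985% of all genes. P2 arrays lay below all P0 arrays in 3 and above in 3, against 8.89% and 7.41% of all genes. The list median was 0.32, opposite in sign to these collagens. The mean of the 21 was 5.59 to 6.06 at P0 and 5.45 to 6.44 at P2, so the list as a whole overlapped. Among 42 extracellular matrix genes none was called and 10 had P2 arrays above all P0 arrays, against 7.41% of all genes. Col15a1, a basement membrane collagen, had 6.92, 8.29 and 6.86 and then 9.72, 9.16 and 9.83 (adjusted p = 0.0612), and Fbn1, fibrillin of elastic fibres, had 9.83 to 10.23 and then 10.55 to 11.39. Of 16 myoepithelial and smooth muscle markers none was called, and the list median was 0.28. P2 arrays lay above all P0 arrays in 5 and below in 2, against 7.41% and 8.89% of all genes. Among those above, Acta2 and Myh11, contractile proteins of these cells, had 7.73 to 8.67 and 6.21 to 7.62 at P0. They had 10.75 to 11.39 and 9.34 to 10.19 at P2. Myh11 was the first probe set past the threshold's edge on the outer side, at 2.79 ± 0.59 with adjusted p = 0.0543, and it was called in 7 of the other fits, among them that with array weights at 0.00606.

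The largest fall among named genes was that of Gpr15lg, the secreted ligand of the lymphocyte receptor GPR15 made by epithelia. It had 10.90, 11.36 and 11.64 at P0, 8.03, 6.78 and 6.41 at P2 and 7.20, 8.18 and 8.85 at P5. The P0 arrays were all above the P2 and P5 arrays, with a P2 difference of -4.23 ± 0.61 (18.7-fold lower, adjusted p = 0.00216), called in each fit that left out 1 array. Among probe sets that were not called, 1 without a symbol differed by -4.72 (adjusted p = 0.0571). Lrp8, a receptor for reelin and apolipoprotein E, had 6.27, 8.17 and 6.87 and then 4.65, 4.57 and 3.93 (difference -2.71, adjusted p = 0.0143). Itga9, an integrin chain, differed by -2.90 (adjusted p = 0.046) with a dim second probe set at 0.21. Cdhr1, a cadherin-related protein, went from 7.84 to 8.52 down to 5.33 to 6.55 (difference -2.38, adjusted p = 0.0224). St6galnac3, which adds sialic acid to glycans, differed by -2.11 and Car11, a carbonic anhydrase-related protein without the enzyme activity, by -1.62 (adjusted p of 0.0316 and 0.0187). The remaining falls were those of Fam181b (-1.88), the small GTPase Rhebl1 (-1.84), the splicing factor Tra2a (-1.35) and the RNA-binding protein Pcbp4 (-1.28). Second probe sets of Fam181b, Car11, Tra2a and Pcbp4 lay at 0.40, -0.91, -0.49 and -0.08 and did not pass. Of these 10 genes only Gpr15lg was called in each fit that left out 1 array, with adjusted p up to 0.22 for the others.

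Signalling genes were among the rises as well. Bmp2, a bone morphogenetic protein, had 2.96, 2.90 and 2.99 at P0 and 6.62, 4.79 and 7.73 at P2 on 1 probe set (difference 3.43 ± 0.64, adjusted p = 0.0224), while the other differed by 0.37. Cnr1, the cannabinoid receptor, differed by 2.53 ± 0.43 (adjusted p = 0.0105) and Agtr1a, the angiotensin receptor, by 2.31 ± 0.47 (adjusted p = 0.0433). Second probe sets of Cnr1 and Agtr1a lay at 1.05 and 2.36 without passing. Ppargc1a, the coactivator of mitochondrial and fatty acid oxidation genes, had 5.61, 6.89 and 6.88 at P0, 9.03, 8.37 and 8.53 at P2 and 7.18, 6.60 and 7.44 at P5. It was 2.18 ± 0.43 higher at P2 (adjusted p = 0.0326) and overlapped P0 again at P5. Other probe sets of Ppargc1a lay at 0.97 and 2.19 without passing. Of 22 genes of fatty acid oxidation Ppargc1a was the only one called, where 0.183% of all genes were called higher. P2 arrays lay above all P0 arrays in 6, against 7.41% of all genes. Rsad2, the antiviral protein viperin, was the only one of 40 interferon genes called (1.79 ± 0.36, adjusted p = 0.0364). Over all genes 0.183% were called higher, and the list median was 0.00. Ripor2 and Cyria differed by 2.47 and 2.39 (adjusted p of 0.00986 and 0.0487), and a second probe set of Ripor2 lay at 0.62 without passing. None of these 7 genes was called in every fit that left out 1 array, with adjusted p up to 0.256. Among 29 genes of hypoxia and glycolysis none was called, 8 had P2 arrays below all P0 arrays, against 8.89% of all genes, and 2 above, against 7.41%. The list median was -0.08 and changed sign between alternatives. The brain-type aldolase Aldoc was the clearest, at 9.64 to 10.33 and then 6.97 to 8.31 (adjusted p = 0.11).

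Most of these differences were still present at P5. In 50 of the 57 called probe sets, 29 of 35 higher and 21 of 22 lower, all 3 P5 arrays lay on the P2 side of all P0 arrays, where 15.8% of all probe sets had P5 arrays on 1 side of P0. The P5 level lay at a median of 73.4% of the way from P0 to P2 for the higher probe sets and at 74.2% for the lower ones. Against P0, 91 probe sets were called at P5 (0.293%), and 29 of the 57 were among those called. Against P2, 2 of all probe sets were called at P5 (0.00644%) and none of the 57, of which 24 had an unadjusted p under 0.05. The P0 and P2 arrays that chose the 57 also enter these comparisons, so the counts are a description. The named genes whose P5 arrays overlapped P0 were Pou2af3, Cyria, Ppargc1a and Cdca2, with 36.2%, 37.8%, 28.2% and 39.1% of the P2 difference left. Bpifb1 and Rbp4 lay furthest beyond the P2 level among the named genes, at 123% and 140%. Pip, Smr3a and Prpmp5 stood at 10.35, 11.23 and 8.85, at 9.94, 8.82 and 9.40, and at 9.37, 10.07 and 10.09 at P5. Their P25 means were 14.07, 14.58 and 14.12, so the levels of P2 and P5 were below those of the weaned gland.

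**Figure D4:**
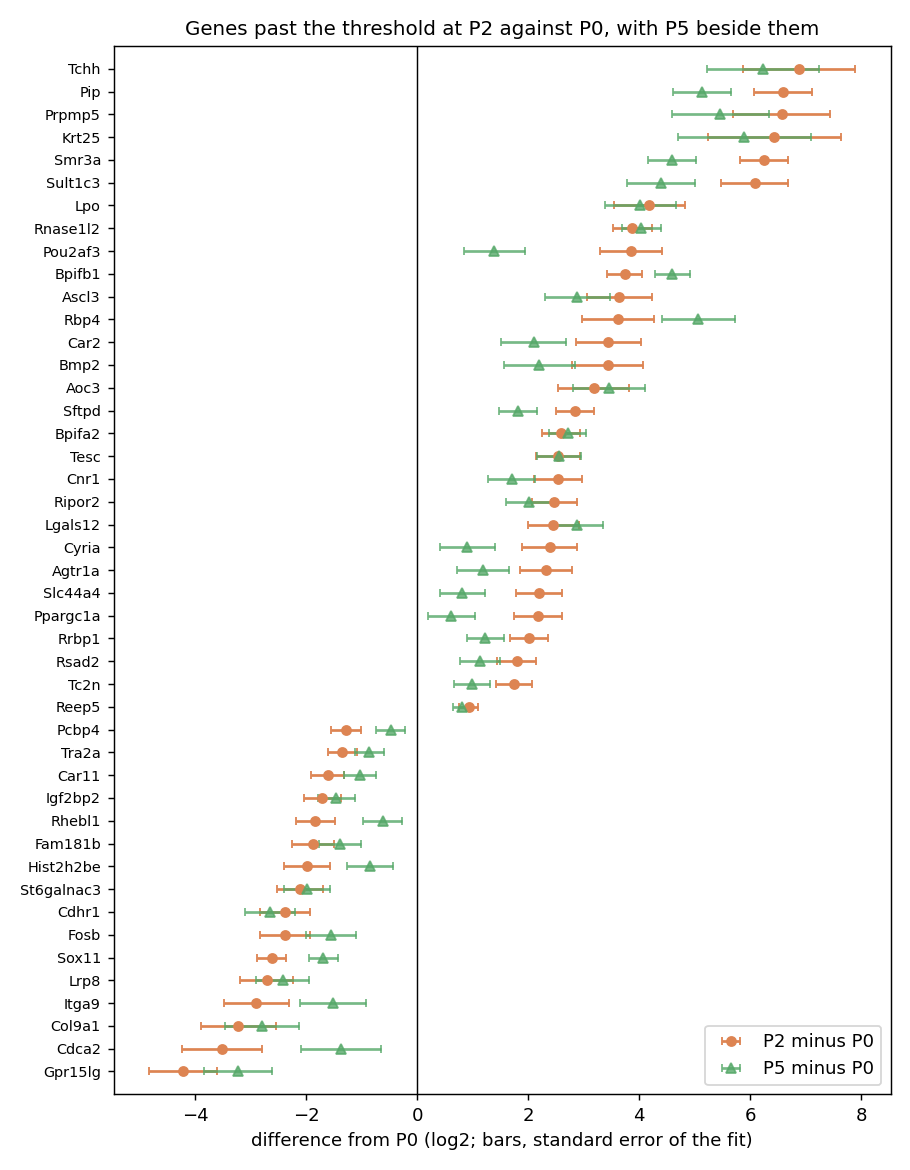
Difference from P0, on the log2 scale, of the 45 named genes past the threshold at P2 (circles) with P5 beside it (triangles), with standard errors of the fit as bars. Tchh is at the top with 6.89 and Gpr15lg at the bottom with -4.23, and Pou2af3, Cyria, Ppargc1a and Cdca2 are among the genes whose P5 triangle lies well inside the P2 circle.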

How the data were processed

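Per the study's methods, RNA of laser-captured cells was amplified as a whole transcriptome and hybridised to Affymetrix rat genome arrays. The values that the authors deposited are log2 RMA levels, 1 for each probe set after correction for background and normalisation, and they were used as they stand. RMA gives no detection call, so whether a low level was above background was not tested. Of 31099 probe sets 57 array controls were left out. A symbol was paired with 20826 probe sets (14217 genes), several with 436 and none with 9780.

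limma 3.58.1 in R 4.3.3 was fitted to all 27 arrays with 1 coefficient per age, and two-sided p-values were adjusted by Benjamini and Hochberg over 31042 probe sets, with a threshold of 0.05. The script was tested on simulated data. Array number limits the precision. Litters were the replicates, and errors in the text are standard errors of the fit. Genes on 25 pathway and 21 marker lists were read from their brightest probe set. The rule for named genes took the 15 largest rises and falls past the threshold, called list members, up to 4 more per list, and all members of the saliva, network, sex and erythroid lists, of which those without a call are in part given as counts. Other called genes were added after their values were seen. The comparison, lists and tests were chosen with earlier results of these data known. Promoter sequences are from RefSeq, GRCr8.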

Additional observations from a re-analysis of the deposited data

How the results depend on the processing

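The counts moved with the arrays, weights and covariates of the fit. Against 57 called probe sets, 0 were called with the 6 arrays of P0 and P2 alone in limma (2569 at an unadjusted p under 0.05, smallest adjusted p 0.0605), 19 with the 9 arrays of P0, P2 and P5, 36 with the 15 arrays from head sections, 33 with the covariate Xist minus Eif2s3y, 137 with array weights, 29 without P0 replicate 1 and P2 replicate 3 together and 2 with the adipocyte and hair follicle covariates, the last 2 chosen after seeing the data. Leaving out 1 array gave 28 to 97. The other settings gave 39 to 63. Of 12 called genes on the pathway lists, 0, 7, 6 and 2 were called with the 6 arrays, the 9 arrays, without both arrays and with the added covariates, and 7 to 11 when 1 array was left out. The number of called probe sets with P5 on the P2 side of P0 was 50, and 18 in the 9-array fit, which called fewer. The replicate numbers mark separate litters, with correlations of -0.03 to 0.04 between same-numbered arrays. With the replicate block 63 probe sets were called, 50 of them shared with the unblocked fit.

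No called probe set changed sign in any of 19 alternatives, and none was called in all, since the 6-array fit called none. Signs changed only for genes without a call. Aqp5 was at -0.00745 with array weights, -0.00337 with the Xist covariate and -0.0173 with the added covariates, and between -0.11 and 0.28 when 1 array was left out. Bhlha15 was at -0.48 with the added covariates and between -0.084 and 0.50 when 1 array was left out. Pck1 and Fabp4 were at -0.0871 and -0.46 with the added covariates, and Eif2s3y at 1.23 with the covariate built from it. Of 138 further genes the rule covers that are given only in counts, 39 changed sign in at least 1 alternative, and the cause was not tested.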
